A study of Rattus norvegicus with 12 samples.

Results

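Primary cortical neuron cultures carrying a short hairpin RNA (shRNA) against Ehmt1 were compared with wild-type cultures, both left without tetrodotoxin (TTX) and therefore free to fire. The comparison took 6 of the 12 RNA libraries of the study: 3 from knockdown untreated cultures and 3 from wild-type untreated cultures, picked by their labels. All cultures came from the cortex of Wistar rats at embryonic day 18. The other 6 libraries came from knockdown and wild-type cultures given TTX, which silences neurons by closing sodium channels, and they are used here only beside the untreated values. The series title names the histone methylation protein EHMT1, Kleefstra syndrome and homeostatic synaptic scaling, the adjustment of synaptic strength to a lasting change in activity. The titles of the libraries name no control hairpin, and the dose and duration of TTX, the vector and the days in culture are not given in the sources used here. In each difference between knockdown and wild-type, loss of Ehmt1 and any effect of a hairpin or its vector cannot be told apart. The libraries are described as biological triplicates, with no word on whether the 3 cultures of a group came from separate litters.

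EHMT1 and its partner EHMT2 form the enzyme that places mono- and dimethylation on lysine 9 of histone H3 in euchromatin, a mark of silenced genes. In neurons the complex is known for holding down genes of other lineages and developmental stages, and loss of 1 copy of the human gene causes Kleefstra syndrome, a neurodevelopmental disorder. Cultures from embryonic cortex hold glutamatergic and GABAergic neurons together with astrocytes and cells of the oligodendrocyte lineage, so levels in bulk RNA depend on the mixture of cells. Fewer cells of a type and less RNA per cell cannot be told apart in such data.

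Before size factors, and summed over all 18905 deposited entries, the 6 libraries held 18480756 to 24787516 read equivalents. Levels are given in read equivalents, the coverage deposited for a transcript divided by 42, the number of bases by which low values step, and they include the size factor of each library. Of 17339 gene symbols, 11849 had at least 10 read equivalents in at least 3 of the 6 libraries and were tested with limma on log2(read equivalents + 1). Log2 changes are knockdown minus wild-type on that scale, which understates the change of genes with few reads. The median SD between libraries of a group was 0.225 in knockdown and 0.223 in wild-type libraries, on the log2 scale. Correlations between libraries across genes ran from 0.964 to 0.978 within groups and from 0.953 to 0.985 between groups. Knockdown library 1 stood apart from the other 5 in the first principal component, which held 34.4% of the variance, with a score of -41.2 against -7.01 to 32.3 elsewhere. In the next component, with 27.5%, wild-type library 3 had the highest score. Knockdown library 1 was also the lowest of the 6 in 8 of 10 oligodendrocyte lineage markers, and log2 changes of lists and their members that it moves by over 1.5 times are given with and without it. Neurons, astrocytes and oligodendrocyte precursors were all present by their markers. Microglial markers summed to 13.7 to 29.1 read equivalents in knockdown and 20.4 to 133 in wild-type libraries, and endothelial markers to 30.5 to 57.4 in knockdown and 29.8 to 52.8 in wild-type libraries, with Cdh5 and Tie1 at 0 in all 6.

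Ehmt1 (NM_001108572), the target of the hairpin, was present at 1076, 1596 and 1082 read equivalents in knockdown libraries 1 to 3 and at 1849, 1656 and 1660 in wild-type libraries 1 to 3. Each knockdown library had less Ehmt1 than any wild-type library, but knockdown library 2 lay only just below the lowest of them. The mean was 1251 ± 298 in knockdown and 1721 ± 110 in wild-type libraries (SD, n = 3 each), which put the knockdown mean at 72.7% of the wild-type mean. Its log2 change was -0.48 (SE 0.20, 95% interval -0.95 to -0.02), with an unadjusted limma p of 0.0433 and a Benjamini-Hochberg adjusted limma p of 0.92. An exact two-sided permutation test gave p = 0.1, the smallest that 3 against 3 libraries allow.

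No gene passed the adjusted threshold of 0.05. Limma called 0 of 11849 genes (0%), and the smallest adjusted p was 0.92. At an unadjusted p under 0.05 there were 529 genes (4.46% of those tested), 256 higher in knockdown (2.16%) and 273 lower (2.3%). In 1140 genes (9.62%) the 3 knockdown libraries did not overlap the 3 wild-type libraries, with knockdown above in 565 (4.77%) and below in 575 (4.85%). The median log2 change over all genes was 0.01, and 48.9% of genes had a negative one. The 95% interval of a gene's log2 change had a median half-width of 0.47, a 1.38-fold difference, before any adjustment. Smaller differences in a single gene thus mostly stayed above an unadjusted limma p of 0.05 with 3 libraries a group. Differences larger than that did not pass the adjusted threshold either. Genes named below did not pass the threshold. The 19 named genes of the figures had a mean of at least 100 read equivalents and groups that do not overlap. They were taken in order of unadjusted limma p. By this rule they had to differ, so their values describe these libraries and the shares above are the background to read them against. Other genes below, most of them list members, were chosen otherwise, and some overlap between groups or lie under that level.

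**Figure D1:**
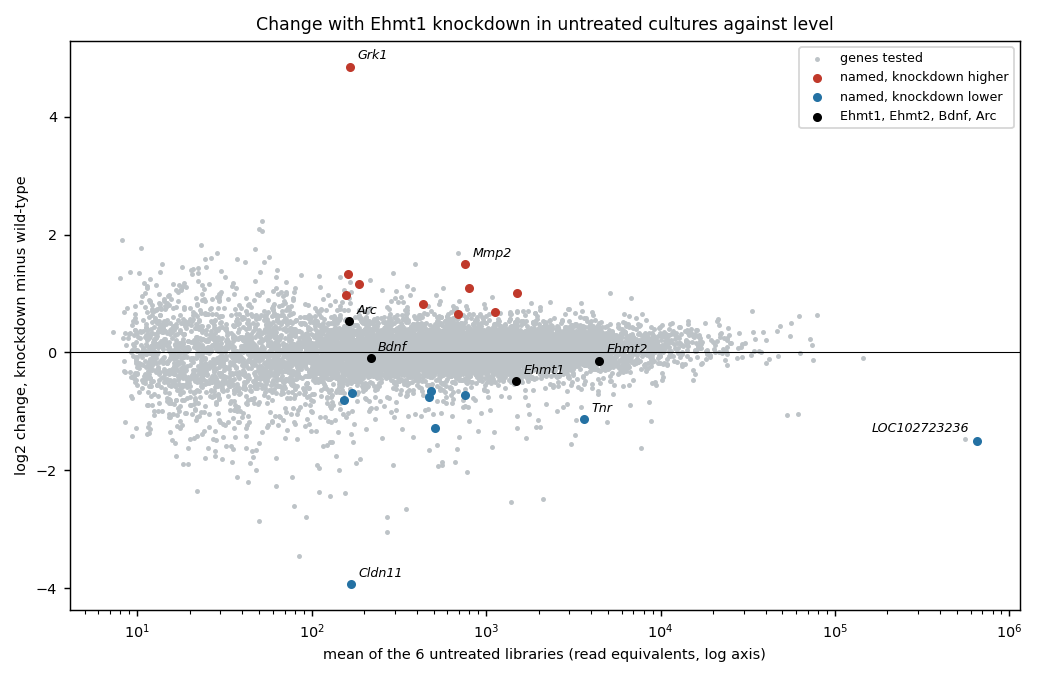
Log2 change between knockdown and wild-type untreated libraries (y axis, limma) against the mean level of the 6 libraries (x axis, read equivalents on a log scale) for the 11849 genes tested. Grey points are all genes, red and blue points the 10 and 9 named genes on each side, and black points Ehmt1, Ehmt2, Bdnf and Arc; most genes lie near 0, and Grk1 at 4.85 and Cldn11 at -3.92 lie farthest out.

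Of the authors' deposited table for the same comparison, 700 of 18671 distinct entries had a p under 0.05. After Benjamini-Hochberg adjustment of those deposited p-values, 6 entries from 5 genes stayed under 0.05. Mmp2 was the one on the higher side, and those on the lower side included LOC102723236 with 2 entries, Lpar1 and Stom. No note says whether the authors' p is adjusted or one-sided. For Ehmt1, Ehmt2, Arc and Mmp2 it lay close to the unadjusted one-sided normal tail of the z score. Bdnf, with a z score of -0.005 and a deposited p of 0.706, was an exception. The counts above take the deposited p as it stands, so they are not on the footing of the two-sided limma counts. For Ehmt1 the authors' deposited table gave a z score of -1.93 and p = 0.0271.

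Among the genes higher in knockdown libraries, Grk1 (NM_031096), which encodes the rhodopsin kinase of photoreceptors, had the widest gap. It stood at 756, 141 and 73.2 read equivalents in knockdown libraries and at 10.7, 10.3 and 1.51 in wild-type libraries. Every knockdown library was above every wild-type library, with knockdown library 1 far above the other two. The log2 change was 4.85 (SE 0.95, limma adjusted p of 0.92) and 3.89 without knockdown library 1. The genes next to Grk1 in the RefSeq order did not share this difference. Tmem255b, just before it, had 70.6, 462 and 684 read equivalents in knockdown and 743, 501 and 534 in wild-type libraries, Atp4b just after it was near 0 in all, and Tfdp1, Gas6 and Tmco3 had log2 changes of -0.08, -0.02 and -0.12.

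Mmp2 (NM_031054), a secreted protease that cuts gelatin and basement-membrane collagen, had 1404, 809 and 1152 read equivalents in knockdown and 297, 348 and 564 in wild-type libraries. The groups did not overlap, and the lowest knockdown library lay well above the highest wild-type library. The log2 change was 1.49 (SE 0.30, 2.82-fold), with an adjusted limma p of 0.92. Timp2, an inhibitor of this protease that also takes part in its activation, had 5862, 4798 and 4384 in knockdown and 3465, 3878 and 3681 in wild-type libraries, a log2 change of 0.44. Of 15 genes for matrix proteases and their inhibitors, 11 had positive and 4 negative log2 changes, with a median of 0.20 that was 0.03 without wild-type library 1.

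Nrsn2, a neuronal membrane protein of small vesicles, had 212, 162 and 255 read equivalents in knockdown and 109, 98.5 and 108 in wild-type libraries (log2 change 0.97, SE 0.19). The wild-type libraries lay within a narrow band and all knockdown libraries above it. Nrgn, the postsynaptic protein neurogranin that binds calmodulin, had 2353, 1865 and 1746 in knockdown and 926, 1382 and 736 in wild-type libraries, a log2 change of 1.01 (SE 0.26). Rgs16, which speeds the switching-off of G proteins, had 294, 154 and 247 in knockdown and 67.0, 81.0 and 124 in wild-type libraries, a log2 change of 1.34 (SE 0.32). Here too the groups stood apart, with the lowest knockdown library of each gene above the highest wild-type one. Chdh, the mitochondrial enzyme that oxidises choline, had 291, 212 and 264 in knockdown and 94.8, 91.7 and 163 in wild-type libraries (log2 change 1.16, SE 0.26).

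Sstr1, a receptor for the neuropeptide somatostatin, had 977, 701 and 845 read equivalents in knockdown and 510, 584 and 503 in wild-type libraries, a log2 change of 0.65 (SE 0.17). Its ligand Sst, made by a class of GABAergic interneurons, had 2798, 2011 and 2767 in knockdown and 1535, 1157 and 1933 in wild-type libraries, a log2 change of 0.73 (SE 0.24). Both genes separated the 2 groups of libraries. The remaining named genes on this side were Sertm1 with a log2 change of 1.09, Kpna2, an importin that carries proteins into the nucleus, with 0.81, and Sh3bgrl3, a small protein of thioredoxin-like fold, with 0.69. All 10 stayed positive when any 1 library was left out, with the lowest value 0.54 for Sstr1 without knockdown library 1.

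**Figure D2:**
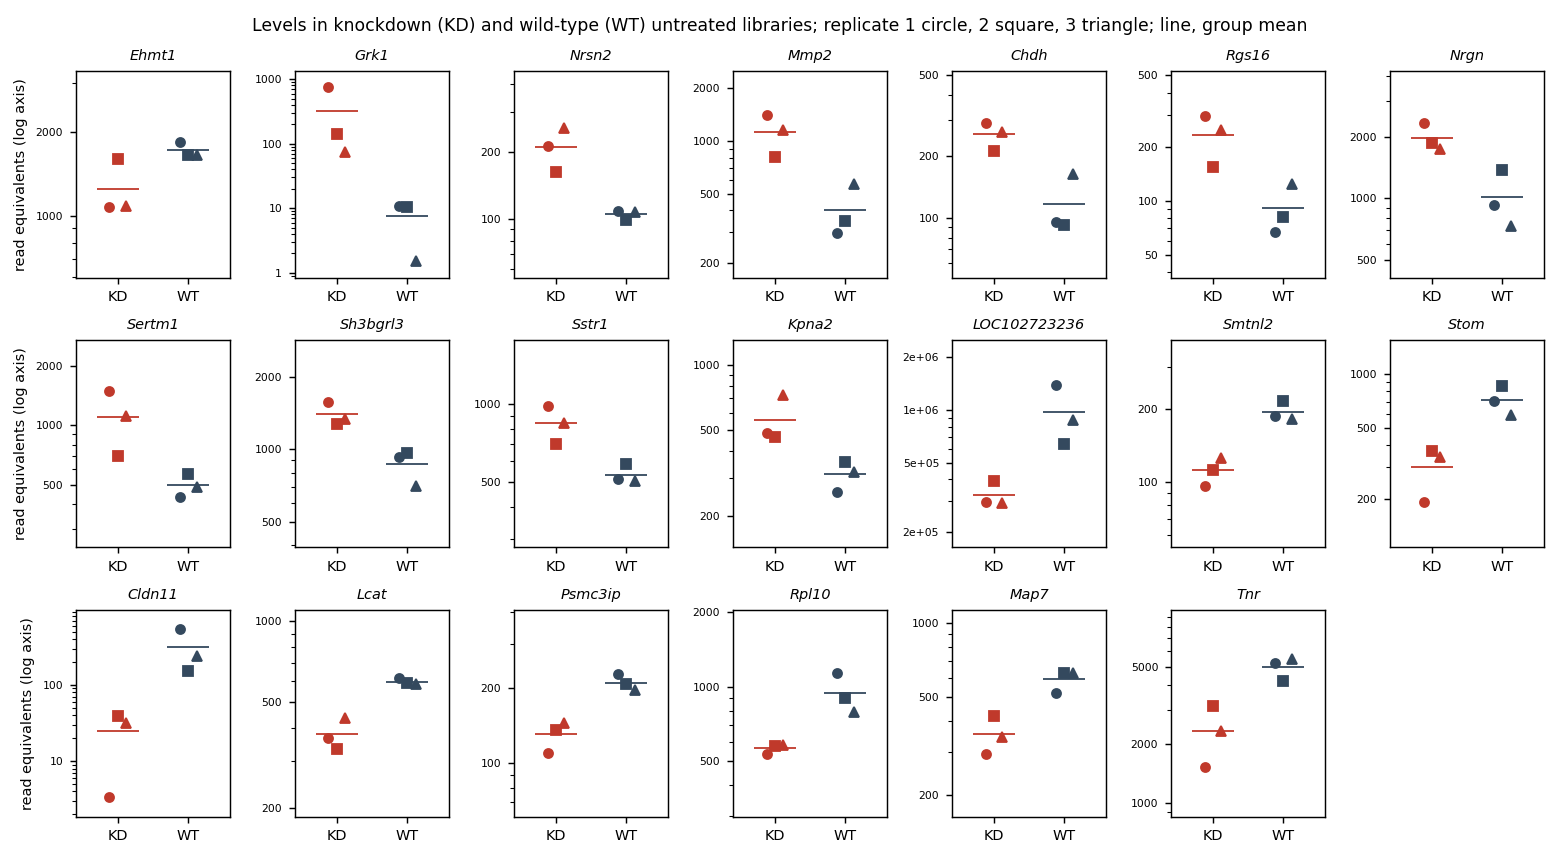
Levels of Ehmt1 and of the 19 named genes in each untreated library, knockdown (KD, red) left and wild-type (WT, dark) right, in read equivalents on a log axis that differs between panels. Circles, squares and triangles are replicates 1, 2 and 3 and the lines group means; by the rule of choice the 19 genes do not overlap between groups, and knockdown library 1 is the extreme point in Grk1 and Cldn11.

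Cldn11 (NM_053457), the tight-junction protein of oligodendrocyte myelin, stood lowest relative to wild-type. It had 3.35, 39.2 and 31.7 read equivalents in knockdown and 541, 152 and 241 in wild-type libraries. Knockdown library 1 was nearly without it, and the other knockdown libraries were still well below all wild-type libraries. The log2 change was -3.92 (SE 0.89, limma adjusted p of 0.92) and -2.90 without knockdown library 1. Tnr, the matrix glycoprotein tenascin-R that oligodendrocytes and some interneurons secrete, had 1526, 3148 and 2337 in knockdown and 5237, 4195 and 5433 in wild-type libraries, a log2 change of -1.14 (SE 0.28), or -0.86 without knockdown library 1. Knockdown library 1 was again the lowest of the 6.

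Lpar1 (NM_053936), a receptor for lysophosphatidic acid found on oligodendrocytes, was under the level limit of the rule. It is named because its deposited p, taken as it stands, stayed under 0.05 after adjustment, that is, after its values were seen. It had 6.82, 33.6 and 32.7 read equivalents in knockdown and 224, 69.0 and 189 in wild-type libraries, and the groups did not overlap. The limma log2 change was -2.79 (SE 0.68). Stom, the membrane scaffold protein stomatin, had 193, 371 and 345 in knockdown and 700, 857 and 587 in wild-type libraries, a log2 change of -1.27 (SE 0.29), or -0.98 without knockdown library 1. Its knockdown libraries all lay below the wild-type ones, library 1 lowest.

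LOC102723236 (NR_110377) took a large part of the coverage. No function is annotated for this noncoding entry in the sources used here. Of the coverage summed over 1 entry per gene symbol, it held 1.57%, 2.14% and 1.54% in knockdown and 7.14%, 3.37% and 4.60% in wild-type libraries. Its log2 change was -1.51 (SE 0.30, limma adjusted p of 0.92). After quantile normalization, which keeps ranks only, it was 0. In both groups the entry ranked at the top in libraries 1 and 2 and just behind Dnajc5 in library 3. Dnajc5, a synaptic vesicle chaperone, shared the top with it. Of the same sum, Dnajc5 had 0.927%, 0.793% and 3.52% in knockdown and 4.58%, 2.05% and 5.43% in wild-type libraries, and the groups overlapped.

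Lcat, which esterifies cholesterol on lipoproteins, had 365, 334 and 435 read equivalents in knockdown and 615, 588 and 583 in wild-type libraries, a log2 change of -0.66 (SE 0.15). The 3 wild-type libraries differed little, and each knockdown library was lower. Smtnl2 had 96.0, 112 and 126 in knockdown and 188, 216 and 183 in wild-type libraries, a log2 change of -0.81 (SE 0.16). Map7, which binds microtubules and recruits kinesin, had a log2 change of -0.75, and Psmc3ip, a factor in meiotic homologous pairing, one of -0.69. Rpl10 belongs to the ribosome and is taken up with it. The 9 genes described on this side stayed negative when any 1 library was left out, with the value nearest 0 being -0.57 for Psmc3ip without knockdown library 1.

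Ehmt2 (NM_212463), the partner enzyme, had 4213, 4743 and 3770 read equivalents in knockdown and 5223, 4868 and 3960 in wild-type libraries. The groups overlapped, and the log2 change was -0.14 with a 95% interval from -0.55 to 0.27. Of 10 writers of H3K9 methylation and their partners, Ehmt1 included, 7 had negative and 3 positive log2 changes. The median was -0.13, or -0.08 without knockdown library 1, and apart from Ehmt1 no member lay beyond ±0.21. Suv39h2 and Suv39h1, the writers of heterochromatic trimethylation, had log2 changes of -0.21 and -0.18, and Setdb1, the writer at silenced repeats, -0.08. Among readers of the mark, Cbx3 had 3876, 3582 and 3865 in knockdown and 4859, 4871 and 4068 in wild-type libraries, with no overlap and a log2 change of -0.28. Cbx5 had a log2 change of 0.38 and overlapping groups. Of 9 H3K9 demethylases 6 were on the negative side (median -0.08), Kdm3a with -0.33 (-0.21 without knockdown library 1), and of 12 Polycomb genes 8 were (median -0.02). Without knockdown library 1, 3 of the Polycomb genes were negative and their median was 0.04, so no direction holds for that list. Of 20 germline genes, which this mark is known to silence in other cells, 5 had enough coverage to be tested, and their log2 changes ran from -1.41 for Stag3 (-0.75 without knockdown library 3) to 0.54 for Piwil2 (0.31 without wild-type library 2).

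Target genes of ATF4, the transcription factor of the integrated stress response that is made when translation initiation slows, were lower in knockdown libraries as a list. Of 19 members tested, 18 had negative and 1 a positive log2 change, with a median of -0.52 against 0.01 over all genes. None was called by limma after adjustment. At an unadjusted p under 0.05 there were 3 of 19 on the lower side (2.3% of all genes), and in 4 of 19 knockdown lay below wild-type without overlap (4.85% of all genes). When each library was left out in turn, between 17 and 19 members were negative and the median ran from -0.75 without wild-type library 3 to -0.41 without knockdown library 1. The mean log2 level of the list, set against its wild-type mean, was -1.01, -0.53 and -0.46 in knockdown libraries 1 to 3 and 0.16, 0.06 and -0.22 in wild-type libraries 1 to 3. The groups did not overlap, with wild-type library 3 the closest. Of its members, Cebpb, Ddit3, Trib3 and Slc7a11 had the smallest unadjusted p, and the others named were chosen after their values were seen.

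Ddit3, the stress-induced factor CHOP, had 415, 422 and 448 read equivalents in knockdown and 864, 864 and 503 in wild-type libraries, a log2 change of -0.75 (SE 0.24). The groups did not overlap, although wild-type library 3 lay close to the knockdown libraries. Cebpb, a partner of CHOP, had 177, 196 and 229 in knockdown and 314, 273 and 273 in wild-type libraries, a log2 change of -0.52 (SE 0.16). Slc7a11, the cystine transporter, had 2266, 9110 and 6398 in knockdown and 14492, 11190 and 9144 in wild-type libraries, a log2 change of -1.16 (SE 0.50), or -0.58 without knockdown library 1. Its highest knockdown library nearly met the lowest wild-type one. Genes for serine, glycine and asparagine supply lay on the same side: Asns at -0.50, Shmt2 at -0.60, Mthfd2 at -0.58, Psat1 at -0.27 and Phgdh at -0.31. Without knockdown library 1 these were -0.38 for Mthfd2, -0.11 for Phgdh and 0.03 for Psat1, and Asns was at -0.31 without wild-type library 2. Atf4 itself had 6964, 7017 and 7962 in knockdown and 7456, 9484 and 5187 in wild-type libraries, a log2 change of 0.03 (SE 0.24) that took either sign as single libraries were left out. Its activity is known to be set largely by translation of its mRNA, which these libraries do not measure. Chaperones of the unfolded protein response had a median of 0.09 over 15 members, 5 of them negative.

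The sequences upstream of 3 ATF4 list genes are shown because they hold, in RefSeq's GRCr8 assembly, the motif TGATGNAA, an 8-letter word of the C/EBP-ATF composite element to which ATF4 binds with its partners. It was searched on both strands in the 250 bases before each gene's annotated start, and capitals mark the match. The lines give the strand on which the gene lies and read 5′ to 3′ along it.
Trib3, chr3:161275534-161275783, minus strand: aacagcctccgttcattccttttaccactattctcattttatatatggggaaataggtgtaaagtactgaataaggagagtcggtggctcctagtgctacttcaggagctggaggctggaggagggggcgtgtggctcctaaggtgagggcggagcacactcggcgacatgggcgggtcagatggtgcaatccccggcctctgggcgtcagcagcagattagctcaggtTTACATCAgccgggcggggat
Chac1, chr3:126795881-126796130, plus strand: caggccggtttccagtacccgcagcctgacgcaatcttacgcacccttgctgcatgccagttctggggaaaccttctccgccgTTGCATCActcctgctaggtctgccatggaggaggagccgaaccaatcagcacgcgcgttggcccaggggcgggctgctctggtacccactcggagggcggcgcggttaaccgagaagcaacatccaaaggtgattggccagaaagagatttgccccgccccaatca
Nupr1, chr1:190645902-190646151, minus strand: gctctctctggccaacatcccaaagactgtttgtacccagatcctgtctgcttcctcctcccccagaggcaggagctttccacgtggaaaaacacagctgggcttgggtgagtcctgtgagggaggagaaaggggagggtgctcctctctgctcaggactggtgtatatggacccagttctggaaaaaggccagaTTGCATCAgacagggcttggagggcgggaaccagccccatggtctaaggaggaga
The match reads TTACATCA in Trib3 and TTGCATCA in Chac1 and Nupr1, on the strand opposite to the motif as written, and it began 21, 167 and 55 bases before the start. Of 18 list members matched to a promoter by symbol, these 3 held the motif (16.7%), against 165 of 8992 matched genes among all those tested (1.83%) and 899 of 27457 promoters in the table (3.27%). A match of these letters is a description of the window and not a measured site. Trib3, a pseudokinase that feeds back on ATF4, had 21.7, 71.0 and 36.1 read equivalents in knockdown and 297, 149 and 69.7 in wild-type libraries, a log2 change of -1.90 (SE 0.60) with a slight overlap. Nupr1, a small stress-induced chromatin protein, had 10.9, 7.70 and 12.7 in knockdown and 22.2, 14.3 and 197 in wild-type libraries, a log2 change of -1.88, and -0.74 without wild-type library 3, which was far above the others. Chac1, a glutathione-degrading enzyme, had 295, 457 and 451 in knockdown and 658, 671 and 417 in wild-type libraries, with overlap and a log2 change of -0.53, or -0.33 without knockdown library 1.

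**Figure D3:**
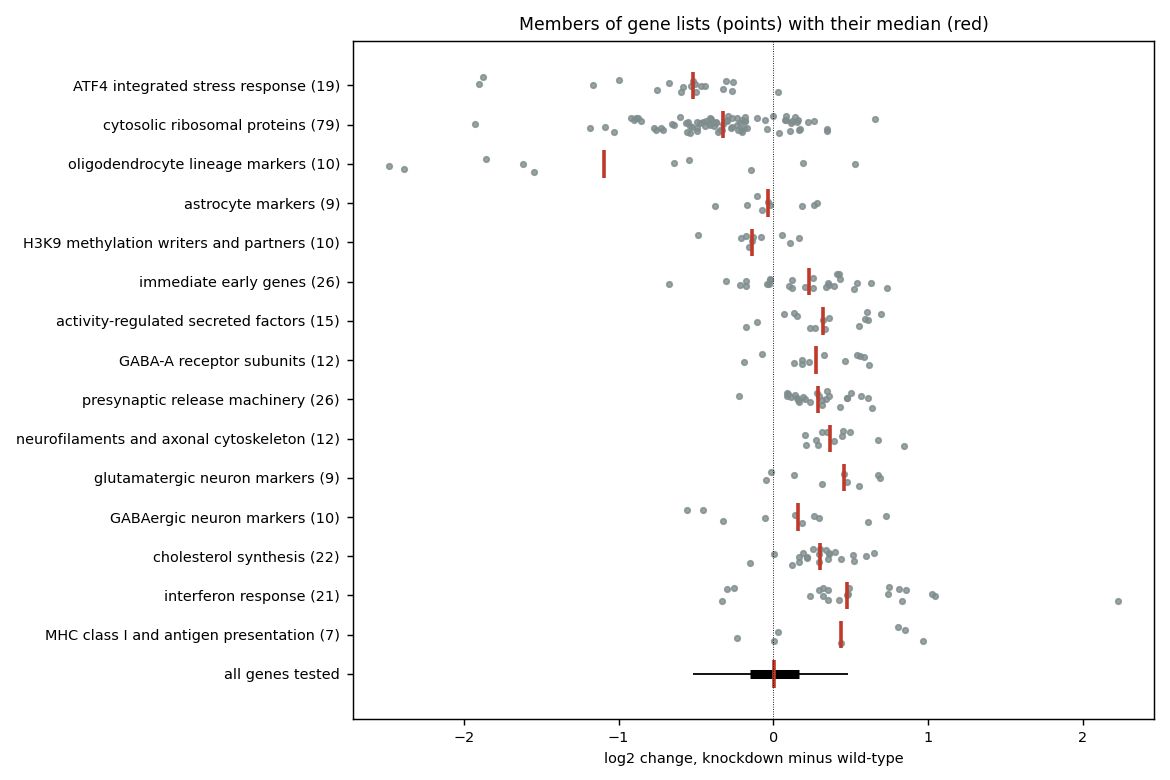
Log2 changes (x axis, knockdown minus wild-type) of the members of 15 gene lists (points, number tested in brackets) with each list's median (red bar). The bottom row gives all genes tested as the 5th to 95th percentile (thin line) and the quartiles (thick line); ATF4 target and ribosomal genes lie mostly left of 0, and synaptic, axonal and cholesterol genes mostly right.

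Genes for the proteins of the cytosolic ribosome, which make up both its subunits, were also lower in most cases. Of 79 tested, 61 had negative and 18 positive log2 changes, with a median of -0.33. At an unadjusted p under 0.05 there were 17 lower (2.3% of all genes) and 1 higher, and in 15 knockdown lay below wild-type without overlap (4.85% of all genes), none the other way. Rpl10, a protein of the large subunit, had 538, 578 and 581 in knockdown and 1139, 899 and 795 in wild-type libraries, a log2 change of -0.72 (SE 0.17). The groups were apart. Rpl9 and Rps27 had log2 changes of -0.90 and -0.92, and Rpl29, the exception on the higher side, had one of 0.66.

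The level of the ribosomal list differed between the libraries of a group as much as between groups. Set against the wild-type mean, its mean log2 level was -0.57, -0.47 and 0.04 in knockdown libraries 1 to 3 and 0.30, -0.02 and -0.28 in wild-type libraries 1 to 3. Knockdown library 3 lay above 2 of the wild-type libraries, so the groups overlapped as lists. With any 1 library left out, between 56 and 75 of the 79 were negative and the median ran from -0.50 without knockdown library 3 to -0.16 without wild-type library 1. Without knockdown library 1 the median was -0.20. Ribosomal protein genes have many near-identical copies in the genome, and the sources do not say how reads that match several copies were assigned, so levels of single members are uncertain.

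Oligodendrocyte lineage genes had a lower list median in knockdown, and 1 library carried most of it. Of 10 markers, 8 had negative and 2 positive log2 changes, with a median of -1.09. Without knockdown library 1 the median was -0.14 and 6 were negative. Pdgfra, the growth factor receptor of oligodendrocyte precursors, had 410, 8911 and 7982 read equivalents in knockdown and 12383, 8677 and 7841 in wild-type libraries. Sox10, a transcription factor of the lineage, had 27.2, 658 and 629 in knockdown and 1341, 555 and 749 in wild-type libraries. In both genes knockdown library 1 was far below all others, and the other 2 knockdown libraries lay within the wild-type range.

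Myelin genes varied within both groups. Mbp, a main protein of compact myelin, had 100, 735 and 1463 read equivalents in knockdown and 5126, 850 and 4366 in wild-type libraries, a log2 change of -2.48 (SE 1.09), or -1.36 without knockdown library 1. Mag, an adhesion protein of the inner myelin layer, had 6.42, 76.6 and 78.9 in knockdown and 341, 49.9 and 377 in wild-type libraries. In both genes wild-type library 2 was much closer to knockdown libraries 2 and 3 than the other wild-type libraries were. Olig1, expressed from the precursor stage on, stood the other way, with 16978, 15162 and 18876 in knockdown and 9950, 12062 and 13508 in wild-type libraries, no overlap and a log2 change of 0.53 (SE 0.18). Olig2, its neighbour in the lineage programme, had a log2 change of -0.14 and overlapping groups, and 0.13 without knockdown library 1. The part of the oligodendrocyte lineage content in other differences, among them Cldn11, Tnr, Lpar1 and Stom, was not tested.

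**Figure D4:**
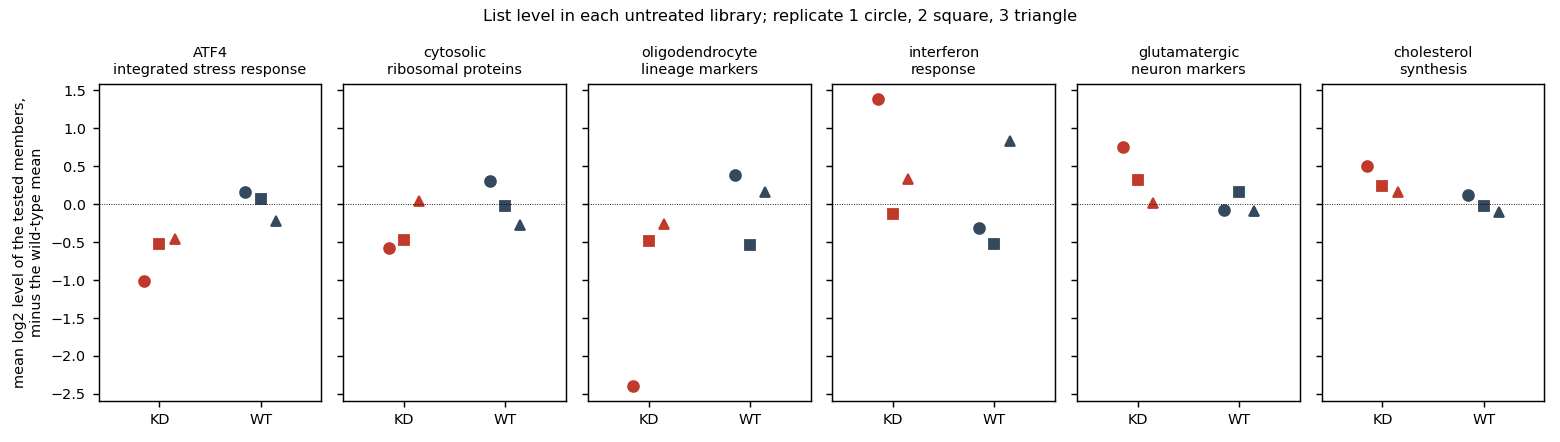
Mean log2 level of the tested members of 6 gene lists in each untreated library, minus the wild-type mean (y axis), with knockdown (KD, red) left of wild-type (WT, dark). Circles, squares and triangles are replicates 1, 2 and 3; the ATF4 and cholesterol lists separate the groups, the other 4 overlap, and knockdown library 1 is at -2.40 in the oligodendrocyte list and at 1.39 in the interferon list.

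Neuron markers had positive list medians in knockdown. Of 9 glutamatergic neuron markers 7 had positive log2 changes, with a median of 0.45, and of 10 GABAergic markers 6 had, with a median of 0.16. Tbr1, a transcription factor of deep-layer projection neurons, had 1013, 725 and 608 read equivalents in knockdown and 415, 550 and 461 in wild-type libraries, a log2 change of 0.69 (SE 0.23). Neurod6, another transcription factor of projection neurons, had 5309, 2964 and 3698 in knockdown and 2326, 2895 and 2122 in wild-type libraries, a log2 change of 0.68 (SE 0.25), or 0.45 without knockdown library 1. Both genes separated the groups, with knockdown library 1 highest. Slc17a7, the vesicular glutamate transporter VGLUT1, had 11524, 6434 and 8196 in knockdown and 5269, 7372 and 5812 in wild-type libraries and overlapped. Without knockdown library 1 the glutamatergic median was 0.25, and it was 0.27 without wild-type library 3. The GABAergic median was 0.09 without knockdown library 1 and -0.19 without wild-type library 2, so no direction holds for that list.

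Among synaptic and axonal genes, 25 of 26 members of the presynaptic release machinery had positive log2 changes (median 0.29), as had 19 of 21 postsynaptic scaffolds and kinases (median 0.26) and 12 of 12 neurofilament and axonal cytoskeleton genes (median 0.37). The groups did not overlap in 4 of the 26, 1 of the 21 and 0 of the 12, and with knockdown above in 4.77% of all genes. Syn2, which tethers synaptic vesicles, had 2827, 2229 and 1982 read equivalents in knockdown and 1367, 1643 and 1703 in wild-type libraries, a log2 change of 0.57 (SE 0.19). Cplx1, a clamp of vesicle fusion, had 6556, 4793 and 4404 in knockdown and 3605, 4321 and 3136 in wild-type libraries, a log2 change of 0.50 (SE 0.21), or 0.33 without knockdown library 1. Camk2a, the kinase of postsynaptic plasticity, had 4165, 2499 and 2147 in knockdown and 794, 2416 and 1933 in wild-type libraries, with overlap and a log2 change of 0.86 (SE 0.45), or 0.38 without wild-type library 1. Knockdown library 1 was highest in each of these genes. Without it, the medians were 0.11 for the presynaptic, 0.13 for the postsynaptic and 0.16 for the axonal list, with 6 of 26, 5 of 21 and 0 of 12 negative. Without wild-type library 1 the presynaptic median was 0.15 and the postsynaptic one 0.17. The mean log2 level of the presynaptic list, set against its wild-type mean, was 0.60, 0.28 and -0.03 in knockdown libraries and -0.22, 0.04 and 0.18 in wild-type libraries, so the groups overlapped.

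Receptor and channel lists had medians between 0.08 and 0.28. Of 12 GABA-A receptor subunits 10 had positive log2 changes (median 0.28, but 0.11 without knockdown library 1, 0.18 without wild-type library 1 and 0.47 without knockdown library 3), and 3 of the 12 separated the groups with knockdown above (4.77% of all genes did). Gabra4, an alpha subunit found outside the synapse, had 842, 727 and 783 read equivalents in knockdown and 425, 619 and 536 in wild-type libraries, a log2 change of 0.59 (SE 0.18). Gabra3 had 879, 647 and 631 in knockdown and 389, 587 and 433 in wild-type libraries (log2 change 0.62, SE 0.22), and Gabrd, the extrasynaptic delta subunit, 227, 140 and 188 in knockdown and 116, 138 and 119 in wild-type libraries (log2 change 0.54, SE 0.21). In Gabrd the lowest knockdown library was almost level with the highest wild-type one. The AMPA receptor list had a median of 0.23 (10 of 11 positive; 0.07 without knockdown library 1), with Gria2, the subunit that sets calcium permeability, the exception at -0.29, or -0.11 without knockdown library 3. The 13 genes for NMDA and metabotropic receptors had a median of 0.08, which was -0.06 without either knockdown library 1 or wild-type library 1. Medians were 0.12 for 7 kainate receptor genes, 0.08 for 8 genes of inhibitory synapses and 0.08 for 18 synaptic adhesion genes, and 1 of these 33 genes separated the groups, near the 4.77% of all genes that did with knockdown above. Without knockdown library 1 the medians were 0.04, -0.04 and 0.06 in the same order, and without knockdown library 2 the adhesion median was -0.04.

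Of 9 genes for main and auxiliary subunits of voltage-gated sodium channels, the channels TTX acts on, 9 had positive log2 changes. Their median was 0.24, and 0.03 without knockdown library 1. Of these genes 0 separated the groups, against 4.77% of all genes with knockdown above. Calcium channel genes had a median of 0.17 over 15 members, which was 0.02 without knockdown library 2 and 0.01 without wild-type library 1. Cacna2d3, an auxiliary subunit that promotes channel surface expression, had 2353, 1596 and 2089 read equivalents in knockdown and 1240, 1396 and 1039 in wild-type libraries, a log2 change of 0.71 (SE 0.20). Its groups were apart. Potassium channels had a median of 0.14 over 24 genes and -0.05 without knockdown library 1, and the calcium channel median was -0.05 without that library. The 5 HCN channel genes, which carry a current opened by hyperpolarization, had a median of 0.18, and -0.05 without knockdown library 1. The 39 clustered protocadherins, cell-surface proteins of neuronal self-recognition, had 34 positive log2 changes and a median of 0.28, or 0.10 without knockdown library 1. The 13 Pcdhg entries all lay between 0.26 and 0.29 and the 15 Pcdha entries between 0.23 and 0.29, and since the variants of a cluster share their last exons these entries repeat the same reads. The 11 Pcdhb genes, which do not share exons, had a median of 0.11.

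Activity-regulated genes were looked at because the cultures were firing. Bdnf, a growth factor of synapses, had 292, 119 and 208 read equivalents in knockdown and 111, 352 and 229 in wild-type libraries. The groups overlapped widely, and the log2 change was -0.10 with a 95% interval from -1.24 to 1.04. It was 0.24 without knockdown library 2 and 0.28 without wild-type library 2, so no direction can be given. Arc, a synaptic immediate early gene, had 241, 99.0 and 223 in knockdown and 78.1, 89.4 and 253 in wild-type libraries, a log2 change of 0.53 with an interval from -0.72 to 1.77. With 1 library left out it ran from 0.21 without wild-type library 1 to 1.05 without wild-type library 3, and was 0.30 without knockdown library 1. Exact permutation p-values were 0.8 for Bdnf and 0.7 for Arc. Of 26 immediate early genes 17 had positive log2 changes (median 0.23, 0.10 without knockdown library 1 and 0.08 without wild-type library 1), and 1, Btg2, separated the groups, which is near the 4.77% of all genes. Egr1 had a log2 change of 0.74 (SE 0.35) with overlap, or 0.40 without knockdown library 1. Among 15 secreted factors known to follow activity, 13 were positive (median 0.32, and 0.12 without knockdown library 1). Median log2 changes were 0.22 for 10 ERK feedback genes and 0.24 for 11 cortical neuropeptides, and 0.05 and 0.13 without knockdown library 1. Chga, a granin of dense-core vesicles, had 3220, 2420 and 2634 in knockdown and 2059, 2147 and 1471 in wild-type libraries, a log2 change of 0.55 (SE 0.21). Nptx1, a pentraxin that clusters AMPA receptors, had 1367, 685 and 768 in knockdown and 532, 594 and 644 in wild-type libraries, a log2 change of 0.61 (SE 0.27), or 0.30 without knockdown library 1. Both genes were without overlap.

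Cholesterol synthesis genes were on the higher side in 21 of 22 cases, with a median log2 change of 0.30. At an unadjusted p under 0.05 there were 4 (2.16% of all genes were higher at that p), and in 9 of 22 knockdown lay above wild-type without overlap (4.77% of all genes). Sc5d, which introduces the ring double bond late in the pathway, had 4077, 3533 and 3981 read equivalents in knockdown and 2812, 3038 and 2711 in wild-type libraries, a log2 change of 0.44 (SE 0.14). Nsdhl, a demethylation enzyme, had 2070, 1650 and 1614 in knockdown and 1399, 1271 and 1057 in wild-type libraries, a log2 change of 0.52 (SE 0.18). Fdft1, the squalene synthase, had 7632, 6586 and 6289 in knockdown and 5591, 5344 and 4595 in wild-type libraries, a log2 change of 0.40 (SE 0.16). In each of these genes the lowest knockdown library was above the highest wild-type one. With any 1 library left out, the median ran from 0.24 to 0.38 and at most 2 members were negative.

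Srebf1, a transcription factor of fatty acid synthesis, lay on the other side, with 5514, 6431 and 6090 read equivalents in knockdown and 13355, 12364 and 7655 in wild-type libraries. The groups were apart, and the log2 change was -0.85 (SE 0.24). The 11 fatty acid synthesis genes as a list had a median of 0.01, with 5 negative, and -0.02 with 6 negative without knockdown library 1. Srebf2, the related factor of the cholesterol pathway, had overlapping groups and a log2 change of 0.12, which was 0.0029 without knockdown library 1.

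Interferon response genes had 18 of 21 positive log2 changes and a median of 0.48. Without knockdown library 1 the median was 0.13 and 8 were negative, while it was 0.24 without wild-type library 2 and 0.88 without wild-type library 3. Oas1a, a sensor of double-stranded RNA, had 226, 24.0 and 26.1 read equivalents in knockdown and 5.68, 9.18 and 20.9 in wild-type libraries, a log2 change of 2.23 (SE 0.89), or 1.19 without knockdown library 1. Knockdown library 1 was far above the others, and the other 2 knockdown libraries lay just above the highest wild-type library. Gbp2, an interferon-induced GTPase, had 157, 59.6 and 106 in knockdown and 80.6, 35.7 and 580 in wild-type libraries, so wild-type library 3 was the highest there. Genes of MHC class I had 6 of 7 positive changes (median 0.44, and 0.17 without knockdown library 1). RT1-CE5 had 532, 318 and 356 in knockdown and 176, 214 and 270 in wild-type libraries (log2 change 0.85, SE 0.25), without overlap, and RT1-A2 had a log2 change of 0.97 with overlap. RT1 genes are a family of close copies, and their levels are uncertain for that reason.

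Medians lay near 0 for astrocytes and progenitors. The 9 astrocyte markers had a median log2 change of -0.04, 6 negative and 3 positive, and 9 markers of dividing progenitors one of 0.01. Both medians took either sign as single libraries were left out. The 5 mural cell and fibroblast markers tested had 3 positive and 2 negative log2 changes, with a median of 0.29 that ran from -0.31 without wild-type library 1 to 1.57 without wild-type library 3. Pdgfrb, the receptor of mural cells, had 181, 738 and 563 read equivalents in knockdown and 1026, 755 and 589 in wild-type libraries, with overlap and a log2 change of -0.87, or -0.26 without knockdown library 1. Dcn, a matrix proteoglycan of fibroblasts, had 54.5, 44.4 and 88.4 read equivalents in knockdown and 16.9, 18.4 and 26.0 in wild-type libraries, with no overlap and a log2 change of 1.53. Collagen genes of fibroblasts were high in 1 library of each group, Col1a2 at 120, 10.3 and 14.7 in knockdown and at 6.76, 10.2 and 271 in wild-type libraries. Of 54 lists looked at, the 15 not described so far, among them Notch, p53, oxidative phosphorylation and glycolysis genes, had medians from -0.08 to 0.21. With 1 library left out, their medians ran from -0.35 to 0.40, both for collagens.

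The same contrast in the TTX libraries was fitted from all 12 libraries. Libraries of the same genotype and number in the 2 conditions may share a culture, which the labels do not state, so the TTX values are set side by side with the untreated ones and taken as no independent support. The fit of the 12 libraries has no term for such sharing. The table that holds all 12 libraries was normalized separately from that of the 6. Ehmt1 had 1187, 1519 and 1162 read equivalents in knockdown TTX and 2039, 1739 and 1839 in wild-type TTX libraries, a log2 change of -0.55 against -0.48 in untreated libraries. Among the 19 named genes, the 10 higher ones had positive and the 9 lower ones negative log2 changes in TTX libraries too. These genes were chosen in untreated libraries that may share cultures with the TTX ones. How many of all genes keep their direction was not computed, so this has no background to read it against. Mmp2 had log2 changes of 1.67 in TTX and 1.49 in untreated libraries, Grk1 6.16 and 4.85, Cldn11 -4.18 and -3.92, and Tnr -1.33 and -1.14. Smtnl2 had -0.21 in TTX and -0.81 in untreated libraries, and of the 19 genes it had the smallest p for the difference. That difference had an unadjusted limma p of 0.0156 and an adjusted p of 1.

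For lists, the median log2 change was -0.54 in TTX and -0.52 in untreated libraries for ATF4 targets, -1.25 and -1.09 for the oligodendrocyte lineage, -0.20 and -0.33 for ribosomal proteins and 0.21 and 0.30 for cholesterol synthesis. The untreated oligodendrocyte median was -0.14 without knockdown library 1, and the TTX median was not computed without single libraries. Knockdown TTX library 1 was also the lowest in Cldn11 (2.21, 19.2 and 21.5 read equivalents in knockdown TTX libraries) and Lpar1 (4.85, 17.4 and 33.8), which are not among the markers. In 12 of the 54 lists the median had opposite signs in the 2 conditions. Among them were germline genes with -0.14 in TTX and 0.35 in untreated libraries, and neurodevelopmental chromatin genes with -0.20 and 0.12. The untreated germline median was 0.02 without knockdown library 1 and -0.08 without wild-type library 1. For the chromatin genes it was 0.03 and -0.04 in the same order, so neither untreated median holds a direction. Bdnf had a log2 change of 0.55 in TTX and -0.10 in untreated libraries. The test of whether the knockdown change differed between untreated and TTX libraries called 0 of 12073 genes by limma (0%), with 53 at an unadjusted p under 0.05 (0.439%). With same-numbered untreated and TTX libraries of a genotype taken as pairs, it called 0 as well, with 455 at that p. For knockdown against wild-type within TTX, the limma fit of 12 libraries called 0 of 12073 genes (0%). It had 986 at an unadjusted p under 0.05 (8.17%) and a smallest adjusted p of 0.101. In that same fit the untreated comparison had 736 genes at an unadjusted p under 0.05 and a smallest adjusted p of 0.687. A gene at an unadjusted p under 0.05 in one condition and not in the other is not shown to differ between them.

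**Figure D5:**
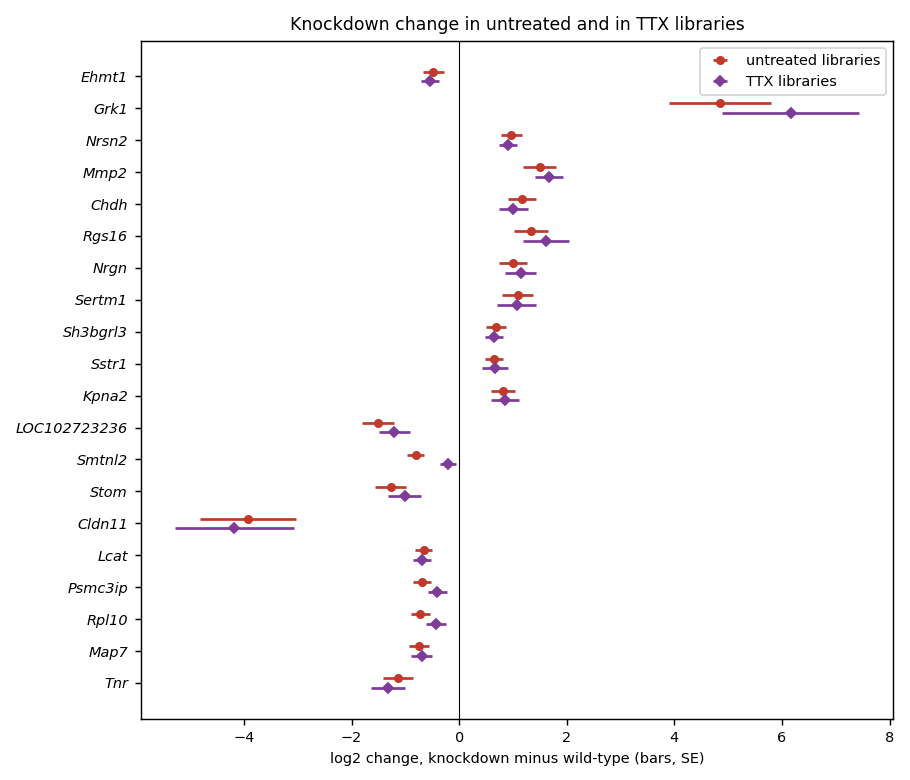
Log2 change between knockdown and wild-type (x axis, points with SE) for Ehmt1 and the 19 named genes, in untreated libraries (red circles) and in TTX libraries (purple diamonds). For each gene the 2 points lie on the same side of 0; Smtnl2 stands at -0.21 in TTX and -0.81 in untreated libraries, and Grk1 at 6.16 and 4.85.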

How the data were processed

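After ribosomal RNA removal, total RNA was read on 1 end with strand kept, pooled 4 per lane, per the labels. GSNAP, DESeq, DESeq2 and the rn6 build appear in the submitters' processing notes, with no version. The deposited signal is taken to be base coverage per RefSeq transcript divided by a size factor per library, as read from the values themselves: within a library all are whole multiples of 1 step (100%), and 44.5% to 52.3% of low values in the 6 libraries lie at multiples of 42 steps. Dividing by 42 gave read equivalents. The sources do not say whether counting used strand. The authors' deposited score is a z value, and their deposited p-value carries no note on adjustment.

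Each of 17339 symbols was represented by its entry of highest mean (18905 entries, 18671 distinct). Genes reaching 10 read equivalents in 3 or more libraries were fitted with limma 3.58.1 in R 4.3.3 on log2(value + 1), groups as the only term, no trend, 4 residual degrees of freedom, Benjamini-Hochberg over all genes, two-sided threshold 0.05. The 12-library fit used 12073 genes. The fit was tested on simulated data before use. Promoters and gene order came from RefSeq (GRCr8), matched by symbol. Figures were drawn with matplotlib 3.10.9.

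The members and the 54 gene lists were chosen with earlier results of these data known. The text names Ehmt1, Ehmt2, Arc and Bdnf, then 10 genes per direction with a mean of at least 100 read equivalents and groups that do not overlap, in order of unadjusted p where none pass the threshold, and up to 4 members of each list by unadjusted p. Some genes that meet these rules are not reported here. Further list members were named after their values were seen. Libraries of the same number were not paired between genotypes. Lanes are not given in the sources used here, so no batch could be tested. Limma p-values set each difference against the spread between these libraries within groups, which may not be that between separate preparations.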

Additional observations from a re-analysis of the deposited data

How the results depend on the processing

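Under all alternatives but one, limma called 0 genes in untreated cultures: other pseudocounts, no filter, a filter of 50 read equivalents, quantile and median-of-ratios normalization, a trend with the robust option, summed entries, all 12 libraries in the fit, and each library left out. With the values as deposited, where 10 on the deposited scale is under 1 read, 23 genes were called, 14 of them higher. The count at an unadjusted p under 0.05 was 529, and 236 to 764 with 1 library left out, lowest without knockdown library 1 (236) and highest without knockdown library 3 (764). For the difference between untreated and TTX, the count was 0 except with the values as deposited (7). Ehmt1 kept its direction in 17 alternatives, from -0.67 to -0.39, with adjusted limma p from 0.715 to 1. LOC102723236 had a log2 change of 0 after quantile normalization, and Bdnf was positive without knockdown library 2 (0.24) and without wild-type library 2 (0.28), with a range from -0.55 to 0.28 over single libraries left out. For Bdnf the cause was not tested.

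No pairing of knockdown with wild-type libraries by replicate number was visible. Same-numbered libraries deviated from their group means with correlations of -0.27, -0.11 and -0.01. With 3 libraries a group, this check cannot exclude a shared preparation. With the replicate block, limma called 0 genes, with 397 at an unadjusted p under 0.05, and with pairs of untreated and TTX libraries as a block the test of the difference called 0, with 455. The smallest adjusted p was 0.504 to 0.978 with 1 library left out. Of the neuronal, ribosomal and interferon lists, medians that a single library moved widely are given beside the list. Coverage limits low genes, and 3 libraries a group limit all of them.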
